A study of Mus musculus with 8 samples.

Results

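The Hox cluster genes were followed across sorted basal keratinocytes of adult mouse back skin. They were chosen by their names, as every array probe whose platform gene symbol is Hox, a cluster letter from a to d and a number. This gave 50 of the 25697 probes, for 38 of the 16593 genes that have a probe. A gene was counted as detected where 1 of its probes had a detection p under 0.05, against the negative control beads of the same array, on 2 or more arrays. By that rule 29 probes of 24 genes were detected. These 24 genes were thus chosen by their detection p-values, and which genes were detected is given as a description, with no test.

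Hox genes encode homeodomain transcription factors. They lie in clusters A to D, and genes with the same number in different clusters (paralogues) descend from 1 ancestral gene. Low numbers act towards the head and high numbers towards the tail and the limb ends, and adult skin cells keep much of the Hox code of their body position. The proteins bind DNA together with TALE homeodomain cofactors of the Pbx, Meis and Pknox families, and Polycomb complexes hold the clusters silent where they are not used. In hair, Hoxc13 is needed for the hair keratins of the growing shaft.

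The 8 arrays came from sorted cells of Gli1-eGFP/+ mice, in which green fluorescent protein reports the Gli1 locus and so cells that respond to hedgehog signals. All groups carried this allele, on an outcrossed Swiss Webster background, and all were taken from dorsal skin in telogen, the resting stage of the hair cycle, from adults. Each replicate pooled 2 mice, and only live single cells stained for α6 integrin, a surface protein of basal keratinocytes, were kept. Gli1+ cells were GFP-positive whatever their CD34 (replicates 2 and 3), CD34+ cells (3 arrays) lacked GFP and carried CD34, the bulge stem cell surface protein, and IFE cells (3 arrays), named for the interfollicular epidermis, lacked both. The submitters describe the last group as mostly interfollicular epidermis and follicle infundibulum. RNA of Gli1+ replicate 1 was judged too poor to use.

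Values are log2 intensities after background correction and quantile normalisation, and the number of arrays limits their precision. They are compared between groups for 1 probe, never between probes. Differences carry a standard error (SE) from a limma fit over all 8 arrays and 9545 detected genes, p-values are adjusted by Benjamini-Hochberg over all of those genes, and an adjusted p under 0.05 is what "called" means here. All probes detected numbered 9925 to 12601 per array. The Gli1+ arrays correlated with each other at 0.82 across genes, which are not independent replicates, against 0.933 to 0.950 within the other groups, and Gli1+ replicate 3 lacked 946 probes found on all 7 other arrays. Gli1 itself read 8.82 and 8.36 in Gli1+ cells, 7.06 to 8.42 in CD34+ cells and 5.01 to 5.32 in IFE cells. It was called higher than in IFE cells in both other groups, in CD34+ cells by 2.47 (limma adjusted p = 0.00477). Between Gli1+ and CD34+ cells the Gli1 values overlapped, and the difference of 0.98 was not called (limma adjusted p = 0.258). Cd34 read 8.50 to 8.86 in CD34+ cells, 8.18 and 8.47 in Gli1+ cells, and 5.44 to 6.31 in IFE cells. The 10 basal keratinocyte markers, among them the sorted integrin Itga6 and the keratins Krt5 and Krt14, were detected on every array.

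Detection was uneven over the clusters and over the paralogue numbers. Of the Hoxa genes with a probe 8 of 10 were detected, of Hoxb 7 of 10, of Hoxc 6 of 9 and of Hoxd 3 of 9. Hoxa2, Hoxa5, Hoxa7, Hoxa9, Hoxb5 and Hoxc6 were detected on all 8 arrays. Paralogue groups 2 to 9 held 21 of the 24 detected genes. Beyond them, only Hoxc10 was detected of group 10, and only Hoxa13 and Hoxc13 of group 13. No gene of groups 1, 11 or 12 passed. The undetected genes were Hoxa10, Hoxa11, Hoxb1, Hoxb8, Hoxb13, Hoxc4, Hoxc11, Hoxc12, Hoxd1, Hoxd3, Hoxd10, Hoxd11, Hoxd12 and Hoxd13. Just inside the rule lay Hoxa4 and Hoxc5, with 2 arrays each, and just outside it Hoxd11, with 1. An undetected probe shows only that its signal did not leave the background of these arrays.

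**Figure D1:**
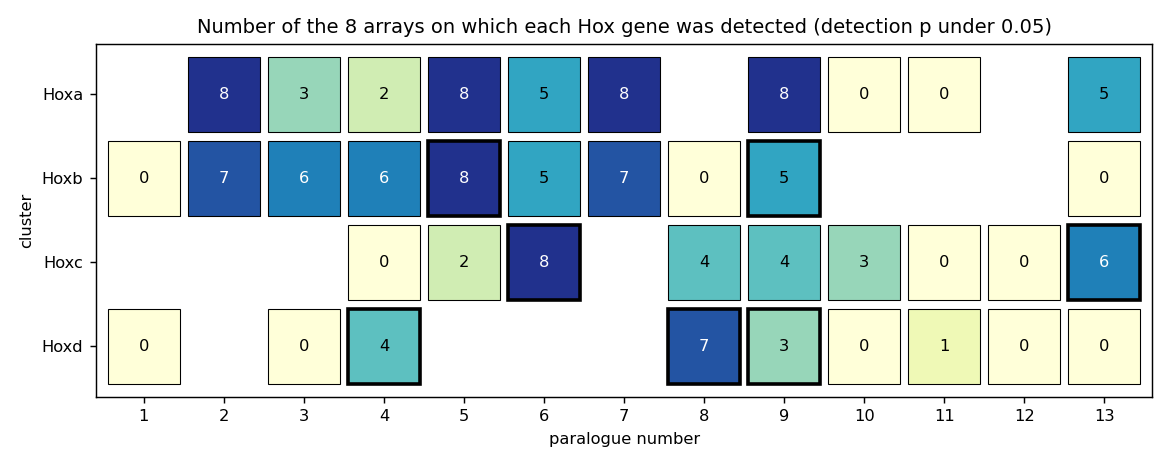
Number of arrays, of 8, with a detection p under 0.05 for the fitted probe of each Hox gene, by cluster (rows A to D) and paralogue number (columns 1 to 13). Empty places have no gene or no probe, and thick frames mark the 7 genes called higher in CD34+ than in IFE cells, of which 3 are Hoxd genes.

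More Hox genes were detected in CD34+ cells than in the other populations. The CD34+ arrays detected 21, 22 and 21 Hox genes, the IFE arrays 15, 11 and 14, and the Gli1+ arrays 19 and 12. All CD34+ counts lay above all others. Gli1+ replicate 2 lay above the IFE range and Gli1+ replicate 3 within it. Of the 24 detected genes 18 were found on all 3 CD34+ arrays, 10 on all 3 IFE arrays and 8 on both Gli1+ arrays. For all 9545 genes those shares were 73.8%, 68.6% and 62.4%, so the CD34+ count was near the general share. The CD34+ arrays also detected the most probes, 12209 to 12601 against 9925 to 11680 on the other arrays. On no IFE array were Hoxa3, Hoxa4, Hoxc5, Hoxc8, Hoxc9, Hoxd4 and Hoxd9 found, 7 genes in all. Among all 9545 genes, 8.52% were found on no IFE array. Hoxa4 and Hoxd9 passed the detection rule through CD34+ arrays alone, and Hoxc8, Hoxc9 and Hoxd4 through 3 CD34+ arrays and 1 Gli1+ array, so these genes could enter the fit only by being brighter there.

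The first comparison set CD34+ cells, from the hair follicle bulge, against the IFE cells. Hoxd8, Hoxc13, Hoxb9, Hoxd4, Hoxd9, Hoxb5 and Hoxc6 were higher in CD34+ cells, by 1.34 to 4.82 on the log2 scale, and no Hox gene was called lower, as 1.85% of all genes were. Thus 7 of the 24 detected Hox genes were called, where 4.8% of all 9545 genes were called and 2.94% were called higher. Without the detection rule, over all 38 Hox genes with a probe, 5 were called higher against 1.4% of 16593 genes, and Hoxb5 and Hoxd4 missed the threshold with adjusted p = 0.0501 and 0.0849. By cluster the calls were 0 of 8 Hoxa, 2 of 7 Hoxb, 2 of 6 Hoxc and 3 of 3 Hoxd genes. Since Hoxd9 and Hoxd4 could pass the detection rule only through brighter CD34+ or Gli1+ arrays, the last count is no support. Without the rule the calls were 0 of 10, 1 of 10, 2 of 9 and 2 of 9. A difference between clusters was not tested. In sorted pools, a smaller share of expressing cells and less RNA per cell cannot be told apart, here or in any result that follows.

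The Hoxd cluster had the fewest detected genes, Hoxd4, Hoxd8 and Hoxd9. Hoxd8 is a gene from the middle of the cluster. Its log2 intensity was 10.46, 10.62 and 11.07 in CD34+ cells, 10.42 and 10.31 in Gli1+ cells, and 4.90, 6.64 and 6.15 in IFE cells. All CD34+ and Gli1+ values lay far above all IFE values. The raw bead intensity shows the same order before any processing: 1639, 1468 and 2591 in CD34+ cells, 1728 and 1292 in Gli1+ cells, and 113, 182 and 170 in IFE cells, from 35 to 51 beads per array. The standard error over beads was 7.88 to 211. The difference was 4.82 ± 0.43 (SE, n = 3 and 3; limma adjusted p = 0.000329), or 28.3-fold, with IFE signal detected on 2 of its 3 arrays. Within the 3 pools of mice it ran from 3.98 to 5.57.

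Hoxd4 patterns the hindbrain and the neck vertebrae. It read 6.93, 6.90 and 6.64 in CD34+ cells, 6.66 and 4.60 in Gli1+ cells, and 4.90, 4.80 and 4.63 in IFE cells, where no array detected it. CD34+ cells were at least 2.92-fold higher than IFE cells, taking the dim side at the lowest detected value of each IFE array or at its own value where that was higher (2.04 ± 0.46 on the log2 scale; SE, n = 3 and 3; limma adjusted p = 0.0339). Every "at least" below is computed in this way. Hoxd9, which shapes the upper limb segment and the lumbosacral spine, was detected on the 3 CD34+ arrays and nowhere else. It read 6.11, 6.37 and 6.37 there, 5.19 and 4.46 in Gli1+ cells, and 4.53, 4.61 and 4.87 in IFE cells. CD34+ cells were at least 2.02-fold higher (log2 1.62 ± 0.29 SE, n = 3 and 3, limma adjusted p = 0.0121).

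These 3 Hoxd genes share a strand and were all called in this comparison, so the sequences around their starts are shown. Of the 7 called genes, these 3 had an entry in the RefSeq promoter table. Each runs 5′ to 3′ from 250 bases before to 50 bases after the annotated start on the plus strand of GRCm38.p6, at chr2:74704365-74704664 for Hoxd8, chr2:74721728-74722027 for Hoxd4 and chr2:74697513-74697812 for Hoxd9. Capitals mark TAAT, the core bases that homeodomains bind, or its reverse complement.
Hoxd8: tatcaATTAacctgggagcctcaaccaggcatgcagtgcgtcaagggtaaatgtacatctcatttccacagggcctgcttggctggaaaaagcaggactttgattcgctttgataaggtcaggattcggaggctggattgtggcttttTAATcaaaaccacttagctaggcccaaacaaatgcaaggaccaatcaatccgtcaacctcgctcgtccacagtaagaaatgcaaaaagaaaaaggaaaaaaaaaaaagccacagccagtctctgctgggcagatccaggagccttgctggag
Hoxd4: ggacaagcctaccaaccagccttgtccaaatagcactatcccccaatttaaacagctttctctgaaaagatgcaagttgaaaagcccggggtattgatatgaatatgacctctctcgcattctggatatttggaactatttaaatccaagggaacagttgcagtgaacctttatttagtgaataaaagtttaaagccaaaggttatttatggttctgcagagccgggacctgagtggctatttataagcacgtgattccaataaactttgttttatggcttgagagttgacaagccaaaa
Hoxd9: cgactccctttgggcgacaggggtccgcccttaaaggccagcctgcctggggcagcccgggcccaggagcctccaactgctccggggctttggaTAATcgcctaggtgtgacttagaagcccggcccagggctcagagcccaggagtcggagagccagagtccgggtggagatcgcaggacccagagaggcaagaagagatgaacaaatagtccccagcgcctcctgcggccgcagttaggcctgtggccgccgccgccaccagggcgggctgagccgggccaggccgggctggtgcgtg
The core occurs 2 times in the Hoxd8 window, 0 times in the Hoxd4 window and 1 time in the Hoxd9 window. In either orientation it is found in 58% of 32851 mouse promoter windows of the same length, and in 19 of 24 windows of Hox genes. The Pbx-Hox motif TGATTNAT (3.22% of all windows) and the GLI motif GACCACCCA (0.253%) have no match in these 3 on either strand. The 3 windows differ in base composition. Hoxd9 has 20 CpG dinucleotides and 68.3% G and C, Hoxd8 has 6 and 46.7%, and Hoxd4 has 4 and 39.7%, where the median mouse window has 7 and 52.7%. The median over the Hox windows is 14.5 CpG. A match describes the letters only and is not a binding site.

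In the Hoxc cluster the calls fell on Hoxc13 and Hoxc6. Hoxc13, the hair shaft regulator at the tail end of the cluster, read 7.47, 8.59 and 8.21 in CD34+ cells, 7.79 and 6.51 in Gli1+ cells, and 5.52, 4.67 and 5.13 in IFE cells, where 1 of 3 arrays detected it. The lowest CD34+ value lay well above the highest IFE value. The difference was 2.98 ± 0.43 (SE, n = 3 and 3; limma adjusted p = 0.00377), or 7.89-fold as computed, with 2 of the 3 IFE arrays not well above background. Hoxc6, a thoracic gene that also acts in the mammary gland, read 9.49, 9.42 and 9.54 in CD34+ cells, 9.31 and 9.10 in Gli1+ cells, and 8.45, 8.34 and 7.63 in IFE cells. It was detected on every array, and CD34+ cells exceeded IFE cells by 1.34 ± 0.29 (SE, n = 3 and 3; limma adjusted p = 0.0312), or 2.54-fold.

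Hoxc9, a gene of the thoracic spinal cord and ribs, differed by more than Hoxc6 but more variably. It read 8.62, 8.66 and 6.24 in CD34+ cells, 8.69 and 4.55 in Gli1+ cells, and 4.81, 4.70 and 4.82 in IFE cells, none of which was detected. The groups did not overlap, and CD34+ cells were at least 5.92-fold higher, but the difference of 3.06 ± 0.95 (SE, n = 3 and 3) was not called (limma adjusted p = 0.111). CD34+ replicate 3 and Gli1+ replicate 3 lay well below the other arrays of their groups. With both Gli1+ arrays left out, an alternative chosen after seeing the data, the adjusted p was 0.00954. Hoxc8, which acts at the level of the forelimb and thorax, averaged 5.30 ± 0.07 (SD, n = 3) in CD34+ cells and 4.79 ± 0.13 (SD, n = 3) in IFE cells, near the background, and was not called. Hoxc5 and Hoxc10 differed by 0.47 and 0.13, with overlapping groups. Their CD34+ means were 5.41 and 5.14, and their IFE means 4.94 and 5.01.

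In the Hoxb cluster Hoxb9 and Hoxb5 were called. Hoxb9, a posterior gene that patterns the ribs, read 7.49, 7.57 and 7.34 in CD34+ cells, 6.62 and 5.41 in Gli1+ cells, and 5.41, 5.11 and 4.73 in IFE cells, where 1 of 3 arrays detected it. CD34+ cells were 5.22-fold higher than IFE cells as computed, with 2 of the 3 IFE arrays not well above background (log2 2.38 ± 0.35 SE, n = 3 and 3, limma adjusted p = 0.0045). Hoxb5, a gene of the shoulder girdle and of enteric neural crest, was detected on every array. It read 9.94, 9.55 and 9.63 in CD34+ cells, 9.01 and 7.97 in Gli1+ cells, and 8.01, 8.31 and 8.45 in IFE cells. The CD34+ excess over IFE was 1.45 ± 0.33 (SE, n = 3 and 3; limma adjusted p = 0.035), or 2.73-fold.

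Hoxb7, a thoracic gene, read 8.68, 8.86 and 8.39 in CD34+ cells and 6.72, 6.86 and 6.88 in IFE cells, against 7.40 and 4.53 in Gli1+ cells. The difference of 1.82 ± 0.59 (SE, n = 3 and 3) was not called (limma adjusted p = 0.127). The fit pools the spread of all 3 groups, and the Gli1+ arrays differed by 2.87. Without them the adjusted p was 0.00187. Hoxb6 averaged 6.28 ± 0.50 (SD, n = 3) in CD34+ and 5.17 ± 0.20 (SD, n = 3) in IFE cells, and its difference of 1.11 ± 0.37 (SE) was not called (limma adjusted p = 0.143).

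The head-side Hoxb genes showed no such separation. Hoxb2, a hindbrain gene, read 6.58, 6.15 and 6.41 in CD34+ cells, 7.58 and 4.85 in Gli1+ cells, and 5.65, 6.77 and 6.71 in IFE cells, with means of 6.38 in CD34+ and 6.37 in IFE cells. Hoxb3, of the hindbrain and pharyngeal arches, read 5.02, 6.41 and 6.62, then 7.48 and 5.32, then 5.59, 6.20 and 5.37 in the same order. Hoxb4, known for expanding blood stem cells when forced on, read 6.29, 7.09 and 6.72 in CD34+ cells, 8.17 and 4.52 in Gli1+ cells, and 6.85, 5.02 and 6.62 in IFE cells. On the fitted probe of each of these 3 genes CD34+ and IFE values overlapped, and the 95% intervals of the differences were -1.35 to 1.36 for Hoxb2, -1.01 to 1.60 for Hoxb3 and -1.28 to 2.36 for Hoxb4. Differences of any size within those intervals remain compatible with these arrays. The Hoxb3 probes disagreed. A second one, detected on 5 arrays, read 6.33, 7.13 and 6.63 in CD34+ cells and 4.75, 5.81 and 5.86 in IFE cells, without overlap. It gave a difference of 1.23, the fitted probe 0.30 and the remaining one 0.19, all 3 uncalled. With both Gli1+ arrays left out, the second probe had the highest mean and its limma adjusted p was 0.0671. Hoxb3 and Hoxb4 overlap in the reference annotation, so their probes may share transcripts.

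The Hoxa cluster had the most detected genes and no call by limma, with 1 gene, Hoxa5, at an unadjusted p under 0.05. Its 8 differences between CD34+ and IFE cells ran from -0.49 to 0.65. Hoxa7, which in human keratinocytes represses differentiation genes, read 11.22, 11.45 and 11.62 in CD34+ cells, 11.14 and 10.98 in Gli1+ cells, and 11.24, 10.79 and 10.81 in IFE cells, with overlapping groups. Hoxa5, a gene of the lung and the upper thoracic skeleton, read 8.85, 9.05 and 8.61 in CD34+ cells, 8.23 and 8.59 in Gli1+ cells, and 8.29, 8.07 and 8.18 in IFE cells. Its CD34+ and IFE groups did not overlap, and its difference of 0.65 ± 0.26 (SE, n = 3 and 3) was not called (limma adjusted p = 0.238). With the authors' deposited log2 values, 1 of 20 alternatives, Hoxa5 was called (limma adjusted p = 0.0453). Hoxa2, which patterns the branchial arches, read 8.23, 7.53 and 8.21 in CD34+ cells, 6.53 and 7.61 in Gli1+ cells, and 7.55, 7.35 and 7.53 in IFE cells. Hoxa9, a gene of blood progenitors and the lumbar spine, read 5.44, 6.30 and 7.59 in CD34+ cells, 6.95 and 6.21 in Gli1+ cells, and 6.77, 7.29 and 6.49 in IFE cells, so the groups overlapped.

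The dimmer Hoxa genes lay close to the background. CD34+ and IFE means were 5.16 and 4.69 for Hoxa3, a thymus and parathyroid gene, 5.03 and 4.86 for Hoxa4, a gene of the neck vertebrae, 5.64 and 5.13 for Hoxa6, and 5.11 and 5.60 for Hoxa13, which shapes the limb ends. Hoxa13 was detected on all 3 IFE arrays and on 1 CD34+ array, but its difference of -0.49 ± 0.36 (SE, n = 3 and 3) was not called (limma adjusted p = 0.559), and its second detected probe differed by 0.22. In the reference annotation Hoxa3 overlaps Hoxa4, Hoxa5 and Hoxa6, so signal from its long transcripts and from theirs may not be separable by these probes.

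**Figure D2:**
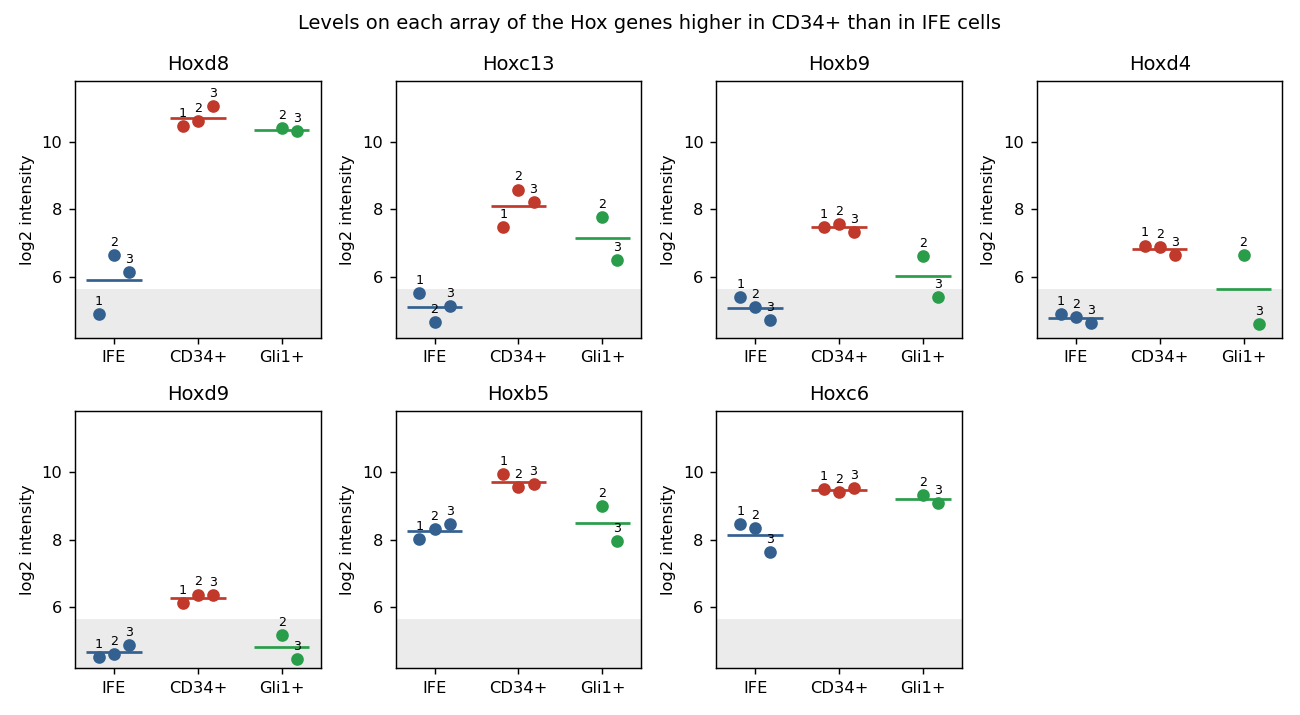
Log2 intensity on each array for the 7 Hox genes called between CD34+ and IFE cells, with the group means as bars; the grey band lies below 5.62, the highest of the lowest detected values of the arrays. The CD34+ points lie above all IFE points in every panel, and both Gli1+ points lie near CD34+ for Hoxd8 and below every CD34+ point for Hoxd9.

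Over the 24 detected Hox genes the median CD34+ minus IFE difference was 0.53, against -0.01 over all genes, and 22 were above 0, against 48.9% of all genes. Over all 38 with no detection rule the median was 0.24 and 28 were above 0, against 47.7%. CD34+ and IFE values did not overlap for 13 of 24, each higher in CD34+ cells, where 13.9% of all genes were separated in that direction and 13.7% in the other. Among the 13, Hoxa3, Hoxc8, Hoxc9, Hoxd4 and Hoxd9 were detected on no IFE array. They passed the detection rule only through brighter CD34+ or Gli1+ arrays, so this count is no support. The calls for Hoxd8, Hoxc13 and Hoxb9 held without any 1 of the 8 arrays. Those for Hoxb5, Hoxc6 and Hoxd4 were lost when any single array of the CD34+ or IFE group was left out (highest adjusted p 0.139, 0.125 and 0.134), and that for Hoxd9 without CD34+ replicate 2 or 3 or IFE replicate 1 or 2 (highest 0.0636). With the replicate number, which marks 1 pool of mice, as a block, Hoxb5 and Hoxc6 had adjusted p = 0.0727 and 0.0591. The calls for Hoxd4 and Hoxd9 were also lost with the authors' deposited log2 values, which were not normalised.

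Markers of the bulge and of other cells moved alongside. Of 10 bulge markers, among them Cd34, Lgr5 and Sox9, 5 were called higher in CD34+ than in IFE cells and none lower. Cd34 is among the 5, and the sort itself separated these groups by CD34, so its call is no support. Of all genes, 2.94% were called higher and 1.85% lower. Of the 12 fibroblast and dermal papilla markers, 4 were detected, and Col1a2, Col6a1 and Sparc were called higher in CD34+ than in IFE cells, by 2.83, 2.97 and 2.20, while Thy1 was not. Their summed intensity was 2537 to 3272 in CD34+ cells, 1585 to 2074 in IFE cells and 1303 to 1916 in Gli1+ cells. The other members of the list, Col1a1, Col3a1, Dcn, Lum, Pdgfra, Pdgfrb, Twist2 and Vim, did not pass the detection rule of 2 arrays. Of the 12, 5 were found on at least 1 CD34+ array, 6 on at least 1 Gli1+ array and 3 on at least 1 IFE array. Of 6 melanocyte markers with a probe 3 were detected, and Mitf, also a follicle gene, was higher by 3.05. The other 2 detected were not called, and the median difference of the 3 was -0.07. Dct, Tyr and Tyrp1 were undetected. Of the endothelial, immune, and nerve and Merkel cell markers, 1, 5 and 3 were detected and none was called by limma between CD34+ and IFE cells, with 0, 1 and 2 at an unadjusted p under 0.05. The summed melanocyte signal, which includes Mitf, was 391 to 499 in CD34+ cells, 171 to 205 in IFE cells and 289 to 445 in Gli1+ cells. The part that the mix of cells had in the Hox differences was not tested.

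The second comparison set the hedgehog-responding Gli1+ cells against the same IFE arrays. Hoxd8 was the only Hox gene called, 1 of 24, where 2.16% of all genes were called and 1.3% were called higher. Without the detection rule it was 1 of 38, against 0.56% called higher. It was 22.1-fold higher (log2 4.47 ± 0.48 SE, n = 2 and 3, limma adjusted p = 0.00547; 0.0184 with the pool of mice as a block). The arrays of Gli1+ replicates 2 and 3, at 10.42 and 10.31, lay far above the highest IFE value. The call held without any 1 array of the CD34+ or IFE group. It was lost when arrays were weighted by their quality (adjusted p = 0.0573), a setting in which both Gli1+ arrays had a weight of 0.411 and the others 1.10 to 1.63.

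Markers moved in this comparison too. Of 10 bulge markers 4 were called higher in Gli1+ than in IFE cells (Cd34, Lgr5, Lhx2 and Postn), as 1.3% of all genes were. IFE cells were sorted as lacking CD34, so the call of Cd34 is no support. The summed intensity of the 10 was 7919 to 9094 against 4384 to 4963. Of 3 detected melanocyte markers Mitf was higher, by 2.39, and the other 2 were not called. None of 5 detected immune markers was called by limma, with 3 at an unadjusted p under 0.05 and a summed intensity of 637 to 667 against 287 to 547, and Adgre1 and Itgam were undetected. Their part in the Hox values was not tested.

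The next largest Gli1+ excesses were Hoxc13 and Hoxc9. Hoxc13 was higher by 2.04 ± 0.48 (SE, n = 2 and 3) with groups that did not overlap, and missed the threshold (limma adjusted p = 0.0598). Hoxc9 differed by 1.84 ± 1.06, with 1 Gli1+ array far above and the other within the IFE range. Hoxc6 was higher by 1.06 ± 0.33 without overlap (limma adjusted p = 0.132), and Hoxb9 by 0.93 ± 0.40 (limma adjusted p = 0.253). Gli1+ values lay above all IFE values for 4 of 24 Hox genes, namely Hoxd8, Hoxc13, Hoxc6 and Hoxc8, against 13.5% of all genes, and below all of them for none, against 18%. The median Hox difference was 0.21, against -0.05 over all genes, and 18 of 24 were above 0, against 46.2%. Hoxa3, Hoxc5, Hoxc8, Hoxc9 and Hoxd4 were detected on no IFE array and passed the rule only through CD34+ and Gli1+ arrays. The counts over the 24 genes are therefore no support. Over all 38 with no detection rule the median was 0.19, against 0.0003 over all genes, and 28 were above 0, against 50.1%. The largest Gli1+ deficit was that of Hoxb7, at -0.86 ± 0.66.

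**Figure D3:**
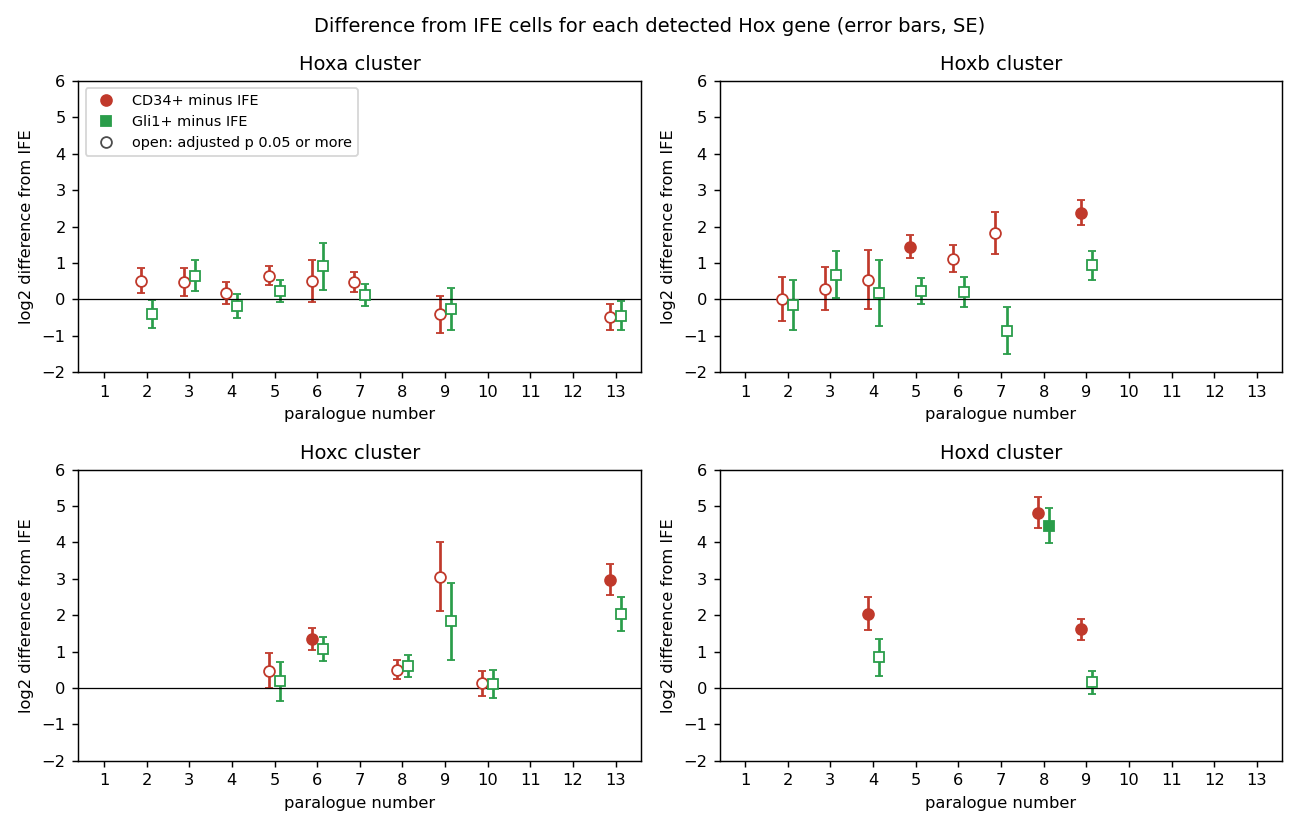
Log2 differences from IFE of the 24 detected Hox genes, with SE bars from the limma fit, for CD34+ cells (3 arrays) and Gli1+ cells (2 arrays); filled points are called. Hoxd8 is the one gene called for both, and all Hoxa points lie within 1 of 0.

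Gli1+ cells were compared with CD34+ cells directly. No Hox gene was called by limma, 0 of 24, where 1.42% of all genes were called and 0.849% were called lower. At an unadjusted p under 0.05 there were 6 of 24, or 25%, against 17.5% of all genes, and each of the 6 had a lower Gli1+ mean. Hoxd9 came closest, detected on no Gli1+ array and lower by at least 1.76-fold (log2 -1.46 ± 0.32 SE, n = 2 and 3, limma adjusted p = 0.0581). Hoxb7 followed with -2.68 ± 0.66 (0.0798), Hoxb9 with -1.45 ± 0.40 (0.1) and Hoxb5 with -1.22 ± 0.36 (0.125), all with groups that did not overlap. Hoxb7 was called with either other background setting, normexp with an offset of 50 or none. In all, 8 of 24 Hox genes had Gli1+ values below every CD34+ value, where 17.9% of all genes did, and none had them above, where 13.5% did. Of the fibroblast markers, Col6a1 and Sparc were lower in Gli1+ than in CD34+ cells, each by -1.99, and Col1a2 and Thy1 were not called. None of 10 bulge markers was called by limma, with 6 at an unadjusted p under 0.05 and a median difference of -0.85. Of 10 basal keratinocyte markers Lamb3 was called lower, with 3 at an unadjusted p under 0.05 and a median of -0.34. No melanocyte, endothelial, immune, or nerve and Merkel cell marker was called. The part of all these markers in the Hox values was not tested. The median Hox difference was -0.36, against -0.05 over all genes. Over all 38 Hox genes with no detection rule it was -0.04, against 0.01, and 17 were above 0, against 51.7% of all genes. Hoxa4 and Hoxd9 had passed the rule through CD34+ arrays alone.

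Hoxd8 differed between these populations by less than its SE, though both Gli1+ values lay below every CD34+ value. Its Gli1+ minus CD34+ difference was -0.36 ± 0.48 (SE, n = 2 and 3; limma adjusted p = 0.739), with a 95% interval of -1.42 to 0.71. Hoxc6 differed by -0.28 ± 0.33, also without overlap, with an interval of -1.02 to 0.45. Hoxc13 differed by -0.94 ± 0.48, with overlap and an interval of -2.01 to 0.12.

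What the Gli1+ cells hold of several other Hox genes depended on the array. Replicates 2 and 3 differed by over 2 on the log2 scale for Hoxa6, Hoxb2, Hoxb3, Hoxb4, Hoxb7, Hoxc9 and Hoxd4, 7 of 24 genes, where 8.52% of all genes did so, and each was higher in replicate 2. Hoxc9 read 8.69 and 4.55, Hoxa6 7.24 and 4.84, and Hoxb4 8.17 and 4.52. In replicate 2, 10 Hox genes were detected that replicate 3 missed, Hoxb9 and Hoxc5 among them. In replicate 3 alone Hoxa3, Hoxa13, Hoxb6 and Hoxc8 were detected. Over all genes 16.3% were detected in replicate 2 only and 8.23% in replicate 3 only. By contrast Hoxd8, Hoxa7 and Hoxc6 agreed within 0.21 between the arrays.

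The Gli1+ differences moved with the array used. Without 1 of the 2 Gli1+ arrays the group holds a single array, so sizes are given here without calls. From IFE cells, Hoxb4 differed by 2.00 with replicate 2 alone and by -1.64 with replicate 3 alone. In the same order, Hoxb2 differed by 1.20 and -1.53, Hoxa6 by 2.10 and -0.30, and Hoxa3 by -0.09 and 1.37. Replicate 3 also had the fewest detected probes of the series, 9925.

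**Figure D4:**
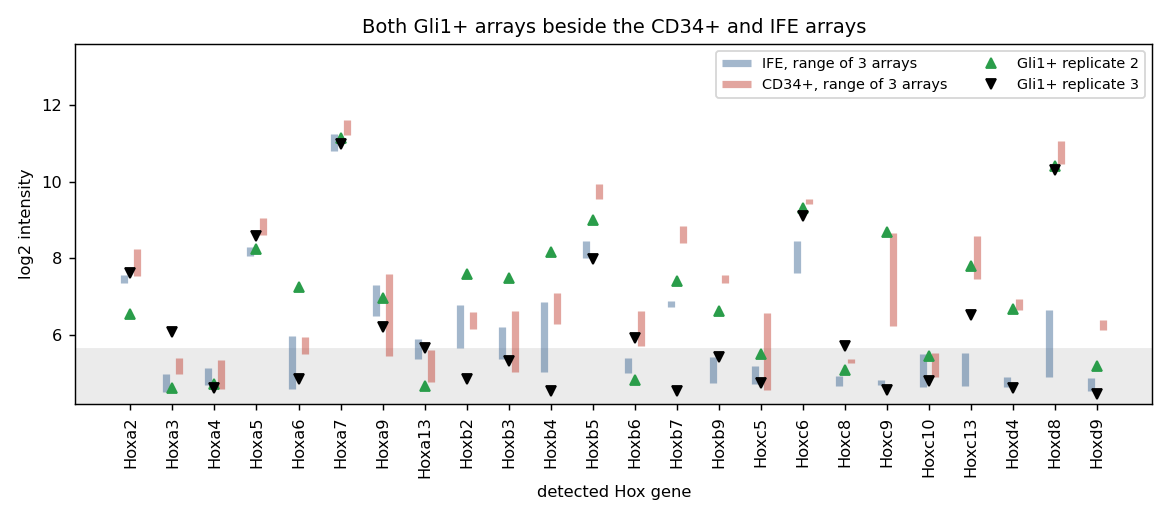
Log2 intensity of the 24 detected Hox genes on Gli1+ replicates 2 and 3, beside the ranges of the 3 CD34+ and 3 IFE arrays; the grey band lies below 5.62. Points of the same gene differ by over 2 for 7 genes, with replicate 2 higher in each, and agree within 0.21 for Hoxa7, Hoxc6 and Hoxd8; heights are not comparable between genes.

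Genes that act with or on the Hox clusters were followed as well. Of all 9545 genes, 4.8% were called between CD34+ and IFE cells, 2.16% between Gli1+ and IFE cells and 1.42% between Gli1+ and CD34+ cells. The lists are short, and single calls in them are given as a description. Of 6 detected TALE cofactors, 1 was called higher in CD34+ than in IFE cells and none lower. This was Pknox2, which read 7.50, 8.07 and 7.40 in CD34+ cells, 5.86 and 6.47 in Gli1+ cells, and 4.64, 6.05 and 5.48 in IFE cells (log2 2.27 ± 0.40 SE, n = 3 and 3, limma adjusted p = 0.0109). None was called by limma between Gli1+ and IFE cells, with 3 at an unadjusted p under 0.05. Against CD34+ cells, Meis1 was lower in Gli1+ cells, at 5.37 and 5.12 against 6.84, 7.12 and 7.15 (log2 -1.79 ± 0.29 SE, n = 2 and 3, limma adjusted p = 0.0262; 0.0774 with the pool as a block). The list's median differences were 0.27, -0.12 and -0.53 in the 3 comparisons, against -0.01, -0.05 and -0.05 over all genes.

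Of 23 detected Polycomb genes, 1 was called in each comparison, where 4.8%, 2.16% and 1.42% of all genes were called. Cbx6, a chromodomain subunit of complex 1, was higher in CD34+ than in IFE cells by 1.37 ± 0.27 (SE, n = 3 and 3; limma adjusted p = 0.0182). Phc2, a polyhomeotic subunit of the same complex, was lower in Gli1+ cells than in IFE cells by -1.48 ± 0.29 (0.0388; 0.115 with the pool as a block) and lower than in CD34+ cells by -1.43 ± 0.29 (0.0456; 0.133 with the block). Its values were 6.14 and 5.73 in Gli1+ cells and 7.20 to 7.56 in all 6 others. None of the 8 Trithorax and H3K27 demethylase genes was called by limma in any comparison, with 1, 1 and 3 at an unadjusted p under 0.05. The largest CD34+ minus IFE difference among them was -0.90 ± 0.29 for Psip1, which tethers MLL complexes to chromatin (limma adjusted p = 0.125). Of 7 detected retinoid and Cdx regulators, Cyp26b1, which degrades retinoic acid, was higher in CD34+ than in IFE cells, at 6.04, 6.60 and 6.52 against 4.67, 5.25 and 4.83 (log2 1.47 ± 0.33 SE, n = 3 and 3, limma adjusted p = 0.035; 0.0591 with the block). The Cdx genes Cdx1, Cdx2 and Cdx4 were undetected.

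Most hair shaft genes linked to Hoxc13 did not leave the array background in these telogen cells. Of 15 with a probe, 1 passed the detection rule, the forkhead gene Foxq1, while 3 were found on at least 1 CD34+ array and 3 on at least 1 IFE array. It was lower in CD34+ than in IFE cells by -1.14 ± 0.30 without being called (SE, n = 3 and 3; limma adjusted p = 0.0629). The hair keratins Krt31, Krt33a, Krt34, Krt35, Krt82, Krt84 and Krt86, and Foxn1, which acts downstream of Hoxc13, did not pass the detection rule. Hoxc13 was higher in CD34+ than in IFE cells of the same series. Among 9 detected genes that flank the clusters, Jazf1, on the Hoxa13 side of the Hoxa cluster, was the single gene called. It was called in 2 comparisons, where 4.8% (CD34+ against IFE) and 1.42% (Gli1+ against CD34+) of all genes were. It read 9.27, 9.17 and 9.43 in CD34+ cells, 6.60 and 4.53 in Gli1+ cells, and 6.55, 6.11 and 6.50 in IFE cells. It was higher in CD34+ than in IFE cells by 2.90 ± 0.46 (SE, n = 3 and 3; limma adjusted p = 0.00658) and lower in Gli1+ than in CD34+ cells by -3.73 ± 0.52 (0.0225; 0.0746 with the block), while no Hoxa gene was called in either. The Evx genes, which adjoin the tail ends of the Hoxa and Hoxd clusters, were undetected.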

How the data were processed

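The submitters' processing notes name GenomeStudio 2010.3; per the labels' protocols, extraction was with Trizol and labelling with NuGEN Ovation Pico. Per the file headers, the deposited matrix holds for each probe a bead-averaged intensity, its standard error as a signal over beads, a bead count (12 to 62 for Hox probes) and a detection p-value. The authors' intensities were not normalised. The deposited log2 values equal the log2 of these intensities within 0.0001, and were an alternative only. No genome build was given in the sources used here.

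Intensities were background-corrected and quantile normalised with neqc (offset 16, controls inferred from detection p-values) in limma 3.58.1 under R 4.3.3. Probes with detection p under 0.05 on 2 arrays were kept. Of 25697 probes, 1719 carried no gene. Each of the 9545 genes took its probe with the highest mean. The fit (lmFit, eBayes, two-sided) gave 1 mean per group, with 5 residual and 4.84 prior degrees of freedom, and was tested on simulated data.

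Per the labels, samples with 1 replicate number were sorted from 1 pool of mice; their deviations correlated at -0.031 to 0.091. Every detected Hox gene was named, with each array's value for called genes and those detected on 6 or more arrays. Lists named up to 4 called members each. Members and lists were chosen with earlier results of these data known. Alternatives were other background settings, cyclic loess, median centring, the authors' deposited log2 values, other detection rules, other treatments of several probes, array weights, the replicate block and leaving out arrays. Promoters are RefSeq's, and motifs were sought as exact letters on both strands.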

Additional observations from a re-analysis of the deposited data

How the results depend on the processing

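The 8 called Hox differences kept their sign in 159 of 159 alternative values and stayed called in 130. With the settings as reported, 458 genes were called between CD34+ and IFE cells, 206 between Gli1+ and IFE cells and 136 between Gli1+ and CD34+ cells. Array weights gave 887, 3 and 1, with 10, 0 and 0 Hox genes. Leaving out 1 array at a time gave 190 to 824, 39 to 1200 and 1 to 1180 genes, and 3 to 9, 1 to 4 and 0 to 6 Hox genes. With both Gli1+ arrays left out, chosen after seeing the data, 817 genes and 9 Hox genes differed between CD34+ and IFE cells. With the replicate block, for the pairing by pool of mice, the counts were 346, 67 and 1, with 5, 1 and 0 Hox genes; among the Hox calls it changed those of Hoxb5 and Hoxc6 and no other. Between Gli1+ and CD34+ cells, normexp with an offset of 50 called 217 genes and no background correction 209, each with 1 Hox gene. The number of detected Hox genes was 24, and 18, 25 and 22 with p under 0.01 on 2 arrays, under 0.05 on 1 array and under 0.05 on 3 arrays. Median centring moved the median of all genes from -0.01 to 0.13 between CD34+ and IFE cells and from -0.05 to 0.10 between Gli1+ and IFE cells. Of genes called between CD34+ and IFE cells, 281 were higher and 177 lower, against 310 and 91 with median centring and 306 and 83 with the deposited log2 values. Between Gli1+ and IFE cells, 124 and 82 became 174 and 36, 171 and 49 with cyclic loess, and 158 and 12 with the deposited values. Between Gli1+ and CD34+ cells, 55 and 81 became 106 and 82 with cyclic loess and 54 and 50 with the deposited values. The causes were not tested. With 2 Gli1+ arrays and 3 in the other groups, and signals of many Hox probes near background, small differences were not detectable.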
